A study of Mus musculus with 6 samples.

Results

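The AP-1 and immediate early genes described here are 10 genes named by symbol, Fos, Fosb, Fosl1, Fosl2, Jun, Junb, Jund, Atf3, Egr1 and Nr4a1, all of them among the 30349 genes listed in the expression table. They were measured in cultured primary epidermal keratinocytes taken from mice at postnatal day 2. There were 3 libraries per genotype, numbered 13, 14 and 15 for wild type and 9, 10 and 11 for p63 alphaKO. In both groups the epidermis had been freed from the dermis with Dispase and dissociated with Accutase, and the cells had been grown until confluent, for 5 to 6 days, at 0.05 mM calcium with 2.5 ng/mL EGF and 4% chelated serum. By its name p63 alphaKO concerns p63, the transcription factor encoded by Trp63 that stratified epithelia need and that occurs in several isoforms, alpha among them. The sources used here do not give the deleted part of the gene, the breeding or the number of animals. RNA was read by 3' digital gene expression, a method that samples transcripts at their 3' end, and each level is in CPM, the reads of a gene per 1000000 counted in that library. The libraries held from 1699716 to 3215333 reads.

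AP-1 is a family of dimeric transcription factors built from basic leucine zipper proteins. Jun proteins can pair with each other or with Fos proteins, whereas Fos proteins need a partner, and the dimers bind the TPA response element or the related cAMP response element. Several of the genes are immediate early genes, whose transcripts appear shortly after growth factor, stress or wounding signals reach the nucleus and decay soon after. In epidermis AP-1 proteins are known for their part in differentiation, in inflammation and in the wound response.

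None of the 9 genes that could be tested passed the threshold of 0.05 on the adjusted p between the genotypes, by limma on log2(CPM + 1) over 11716 genes, and Fosb was too low to test. All 9 had a lower fitted level in p63 alphaKO, and 8 of them did without p63 alphaKO replicate 11. Over all genes tested, 0.0427% passed the threshold and 49.3% had a negative log2 fold change. Atf3 and Nr4a1 were the members with no overlap between the 2 genotypes, at 4.09 ± 0.868 against 1.18 ± 0.185 CPM and at 3.25 ± 1.18 against 0.680 ± 0.685 CPM (SD, n = 3 per group, wild type first). Of all genes tested, 5.09% showed that pattern in the same direction. The p63 alphaKO levels rest on 8 reads in all for Atf3 and 5 for Nr4a1. Nr4a1 and Fos were tested only because of their wild type libraries. Fosl1 and Fos had fitted p63 alphaKO to wild type folds of 0.492 and 0.494 but overlapped, and Junb, Jund and Egr1 had log2 fold changes between -0.23 and -0.16. Against genes of like mean level, the spread between libraries of 1 genotype was wide for Fosl1, Jun, Fosl2 and Fos and narrow for Junb. It was narrow too for Atf3, whose p63 alphaKO libraries held only 2 or 3 reads each. The labels do not say whether the libraries come from separate animals, so the p-values measure the spread between these libraries, which may be technical. Trp63, the gene the genotype concerns, stood at 38.0, 53.2 and 48.9 CPM over wild type replicates 13, 14 and 15 and 49.8, 59.3 and 57.0 CPM over p63 alphaKO replicates 9, 10 and 11, and a value per gene from 3' reads does not check the genotype of a library. In these bulk cultures fewer cells of a type and less RNA per cell cannot be told apart.

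The sequences before the transcription starts of 4 members are shown because these genes carry most of the account: Atf3 and Nr4a1, whose groups did not overlap, and Fos and Jun, the founding partners of AP-1. Each is the 250 bases before a RefSeq start on GRCm38.p6, read 5' to 3' on the gene's strand, for Atf3 chr1:191183334-191183583 (minus), for Nr4a1 chr15:101266596-101266845 (plus), for Fos chr12:85473640-85473889 (plus) and for Jun chr4:95052223-95052472 (minus). Capitals mark TGACG on either strand, which is part of the cAMP response element, and TGACATCA on either strand, a variant element that AP-1 dimers can bind.
Atf3: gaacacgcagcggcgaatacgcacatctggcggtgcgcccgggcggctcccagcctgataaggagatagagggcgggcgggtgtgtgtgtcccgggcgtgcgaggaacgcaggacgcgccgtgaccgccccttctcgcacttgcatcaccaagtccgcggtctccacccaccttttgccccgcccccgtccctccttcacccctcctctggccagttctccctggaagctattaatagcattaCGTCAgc
Nr4a1: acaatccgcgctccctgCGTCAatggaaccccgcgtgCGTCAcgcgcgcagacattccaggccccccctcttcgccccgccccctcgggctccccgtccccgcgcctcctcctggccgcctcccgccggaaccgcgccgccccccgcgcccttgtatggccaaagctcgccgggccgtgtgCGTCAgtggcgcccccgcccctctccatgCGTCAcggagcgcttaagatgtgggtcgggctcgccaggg
Fos: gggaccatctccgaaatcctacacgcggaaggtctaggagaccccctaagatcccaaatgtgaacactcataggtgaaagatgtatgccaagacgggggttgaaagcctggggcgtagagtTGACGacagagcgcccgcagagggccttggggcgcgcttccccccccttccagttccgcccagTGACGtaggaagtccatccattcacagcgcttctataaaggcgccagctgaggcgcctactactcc
Jun: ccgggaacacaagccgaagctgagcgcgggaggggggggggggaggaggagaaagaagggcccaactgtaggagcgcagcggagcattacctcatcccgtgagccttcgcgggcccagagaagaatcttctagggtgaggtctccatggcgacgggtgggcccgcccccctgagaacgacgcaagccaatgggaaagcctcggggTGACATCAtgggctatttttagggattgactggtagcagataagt
The Nr4a1 window held TGACG at 4 places, the Fos window at 2 and the Atf3 window at 1, which lay 7 to 3 bases before the start. Of all 32851 such windows in the table, 17.8% held TGACG at least once and 0.688% at 3 or more places. The Jun window held TGACATCA 45 to 38 bases before the start, as 2.93% of all windows held it somewhere. Windows were used for 8 of the 10 genes, and those of Fosl1 and Egr1 were not used here. Among the other windows, Fosb and Junb held TGACG at 1 place each, and Fosl2 and Jund held neither motif. The whole element TGACGTCA (1.55% of all windows) was in none of the 8. Nor was TGANTCA with any base at N (6.75%), a wider pattern that includes the TPA response element. The CArG box bound by serum response factor (1.47%) was in none of them either. Only the 250 bases before each start were searched, so these genes may hold any of these elements farther away. The windows of Atf3, Nr4a1 and Fosl2 lie inside the GENCODE spans of these genes. Sequence before any start farther upstream was not searched. A match here is a run of letters in this window, not a measured binding site.

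Fos and Fosb encode the early Fos proteins, which have a transactivating C-terminal end. Fos (chromosome 12, 85473890 to 85477273, plus strand, as all coordinates here on GRCm38) reached 1.57, 7.46 and 0.95 CPM across wild type libraries (here and below in the order 13, 14, 15) against 0.91, 1.67 and 0 CPM across p63 alphaKO (9, 10, 11). Wild type replicate 14, with 24 reads, stood alone above the other libraries, which held 0 to 5 reads, and the groups overlapped. The log2 fold change of CPM + 1, p63 alphaKO minus wild type, was -1.02 (SE 0.67, 95% interval -2.42 to 0.39, limma adjusted p = 0.870), and it was -0.38 without wild type replicate 14. Fosb (chromosome 7, 19302696 to 19310051, minus strand) had 2 reads in wild type replicate 13, at 0.63 CPM, and was listed at 0 in the other 5 libraries. It lay under the minimum mean of 1 CPM for testing, and a level under that of 3 reads, which is 0.933 CPM at the greatest depth here and 1.76 CPM at the least, was not detectable at this depth. Fos and Nr4a1 averaged under 1 CPM in p63 alphaKO and so were tested only because of their wild type libraries.

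Fosl1 and Fosl2 encode Fra-1 and Fra-2, Fos proteins that lack the transactivating end and often last longer than Fos itself. Fosl1 (chromosome 19, 5447547 to 5455946, plus strand) was at 21.4, 31.1 and 7.31 CPM across wild type libraries against 12.8, 14.3 and 2.35 CPM across p63 alphaKO. Wild type replicates 13 and 14 were the highest, and replicate 15 lay below p63 alphaKO replicates 9 and 10. This gave a log2 fold change of -1.02 (SE 0.56, 95% interval -2.20 to 0.15, limma adjusted p = 0.811). Its spread between libraries of 1 group was 1.12 on the log2 scale, against a median of 0.420 over the 1885 genes within 0.5 log2 of its mean level. Without p63 alphaKO replicate 11 the log2 fold change of Fosl1 was -0.32, and without wild type replicate 15 it was -1.59.

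Fosl2 (chromosome 5, 32135801 to 32157842, plus strand) had 222 to 823 reads per library, at 258.6, 249.6 and 133.7 CPM across wild type libraries against 187.7, 176.9 and 130.5 CPM across p63 alphaKO. As for Fosl1, wild type replicates 13 and 14 were the highest libraries and p63 alphaKO replicate 11 the lowest. The log2 fold change was -0.33 (SE 0.27, 95% interval -0.89 to 0.23, limma adjusted p = 0.907), and leaving out 1 library at a time moved it between -0.64 and -0.16. With wild type replicate 15 and p63 alphaKO replicate 11 both left out, it was -0.48 (limma adjusted p = 0.334), the smallest adjusted p of any member in any setting tried.

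**Figure D1:**
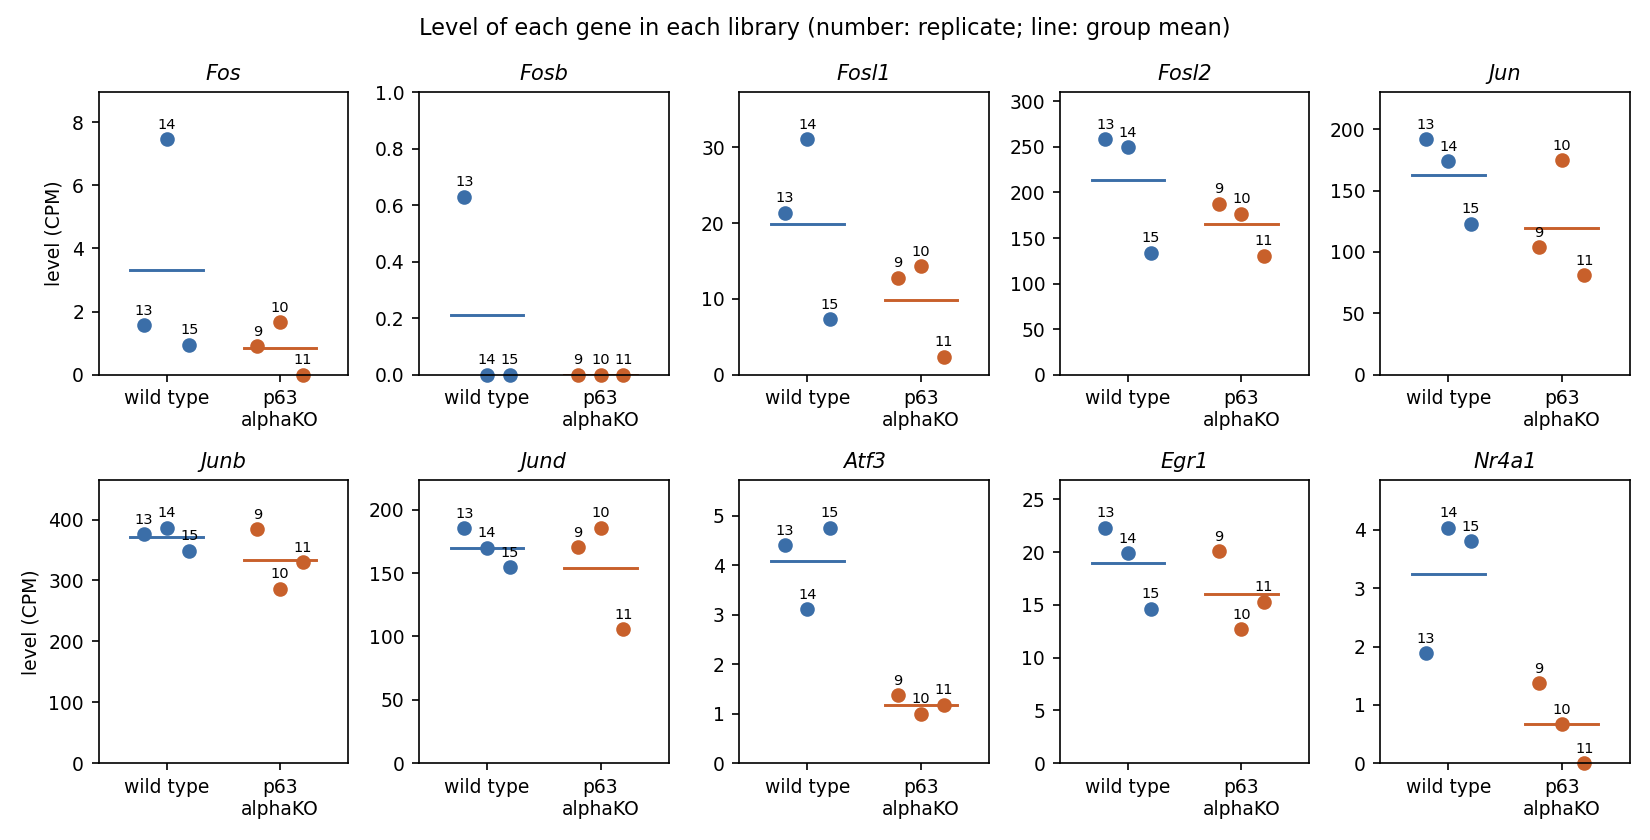
Level in CPM (vertical axes, each from 0) of the 10 genes in the 3 wild type libraries (blue) and the 3 p63 alphaKO libraries (orange), with the replicate number at each point and a line at the group mean. Atf3 and Nr4a1 are the genes with every p63 alphaKO point below every wild type point, whereas for Fosl1 and Fosl2 wild type replicate 15 sits among or below p63 alphaKO points.

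Jun, Junb and Jund encode the Jun proteins, which supply the obligatory partner of Fos proteins. Jun (chromosome 4, 95049034 to 95052222, minus strand) was at 192.0, 173.8 and 122.9 CPM across wild type libraries against 103.7, 174.9 and 81.1 CPM across p63 alphaKO. In p63 alphaKO replicate 10 its level lay just above that of wild type replicate 14, and replicates 9 and 11 lay below all wild type libraries. This gave a log2 fold change of -0.49 (SE 0.28, 95% interval -1.08 to 0.10, limma adjusted p = 0.828). The value for Jun was -0.80 with p63 alphaKO replicate 10 left out and -0.25 with replicate 11 left out. Junos, annotated antisense to Jun and overlapping it, was at 0.31, 1.87 and 4.76 CPM across wild type libraries against 3.20, 2.33 and 6.47 CPM across p63 alphaKO. Whether the counting used strand is not given in the sources used here, so how reads of such overlapping genes were counted is not known.

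Junb, which can oppose Jun in the control of cell growth, and Jund, the Jun gene least dependent on stimulation, differed least. Junb (chromosome 8, 84974484 to 84978718, minus strand) was at 376.1, 386.7 and 349.1 CPM across wild type libraries against 383.6, 286.6 and 330.3 CPM across p63 alphaKO. Its libraries overlapped, with p63 alphaKO replicate 9 above wild type replicates 13 and 15, and they varied by 0.158 log2 within groups against a median of 0.283 for 369 genes of like level. The fitted log2 fold change was -0.16 (SE 0.21, 95% interval -0.60 to 0.28, limma adjusted p = 0.952). The protein-coding gene Prdx2 overlaps Junb on the opposite strand and was read at 226.8 to 737.6 CPM. Jund (chromosome 8, 70698949 to 70700616, plus strand) was at 185.4, 170.0 and 154.7 CPM across wild type libraries against 170.3, 185.9 and 105.8 CPM across p63 alphaKO. Its highest and its lowest library were both p63 alphaKO. The log2 fold change of Jund was -0.18 (SE 0.25, 95% interval -0.70 to 0.34, limma adjusted p = 0.958), and it was 0.07 without p63 alphaKO replicate 11, so its direction rests on that library. The intervals of Junb and Jund leave room for a fall of 0.60 and of 0.70 log2, so falls up to those sizes lie within the error of these data.

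Summed over Jun, Junb and Jund, the level was 753.5, 730.5 and 626.7 CPM across wild type libraries against 657.6, 647.5 and 517.2 CPM across p63 alphaKO. The sum of Fos, Fosb, Fosl1 and Fosl2 was 282.2, 288.2 and 142.0 CPM across wild type libraries against 201.4, 192.9 and 132.8 CPM across p63 alphaKO. Both sums overlapped between the groups, since wild type replicate 15 fell below p63 alphaKO libraries. These sums are descriptions, and no test was made on them. Within a library, the log2 ratio of Jun to Junb was -0.97, -1.15 and -1.51 in wild type and -1.89, -0.71 and -2.03 in p63 alphaKO. That ratio was higher in p63 alphaKO replicate 10 than in any wild type library, and lower in replicates 9 and 11.

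Atf3, a stress-induced bZIP factor that can dimerise with Jun proteins, varied little within the groups, by 0.202 log2 (SD) against a median of 0.690 over 989 genes of like level. With 2 or 3 reads in each p63 alphaKO library, this small spread does not show a steady level there. Replicate 11, with 2 reads, lay under the level of 3 reads taken as detectable. Atf3 (chromosome 1, 191170296 to 191218039, minus strand) was at 4.4, 3.11 and 4.76 CPM in wild type, from 14, 10 and 15 reads, and at 1.37, 1.00 and 1.18 CPM in p63 alphaKO, from 3, 3 and 2 reads. The lowest wild type library held more than the highest p63 alphaKO library. The log2 fold change was -1.21 (SE 0.51, 95% interval -2.28 to -0.14), with an unadjusted p of 0.0294 that did not pass adjustment over all genes (limma adjusted p = 0.758). Pooled over each group's reads, the wild type level was 3.52-fold that of p63 alphaKO (exact 95% interval 1.62 to 8.72), an interval that reflects counting error and no variation between libraries. Leaving out 1 library at a time moved the log2 fold change of Atf3 between -1.36 and -1.11.

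Egr1 and Nr4a1 are immediate early genes outside the bZIP family. Egr1, a zinc finger factor induced through ERK signalling and serum response factor, was at 22.3, 19.9 and 14.6 CPM across wild type libraries against 20.1, 12.7 and 15.3 CPM across p63 alphaKO. The groups overlapped, and the log2 fold change was -0.23 (SE 0.33, 95% interval -0.93 to 0.46, limma adjusted p = 0.961), between -0.40 and -0.09 when 1 library was left out. Nr4a1 (chromosome 15, 101254269 to 101274795, plus strand), the orphan nuclear receptor Nur77, was at 1.89, 4.04 and 3.81 CPM in wild type, from 6, 13 and 12 reads, and at 1.37, 0.67 and 0 CPM in p63 alphaKO, from 3, 2 and 0 reads. The groups did not overlap, yet the nearest libraries, wild type replicate 13 and p63 alphaKO replicate 9, rest on 6 and 3 reads. This gave a log2 fold change of -1.38 (SE 0.59, 95% interval -2.62 to -0.15), with an unadjusted p of 0.0305 and a limma adjusted p of 0.758, and fits with 1 library left out ran from -1.67 to -1.05. In pooled reads the wild type level was 4.48-fold that of p63 alphaKO (exact 95% interval 1.73 to 14.7, counting error alone).

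**Figure D2:**
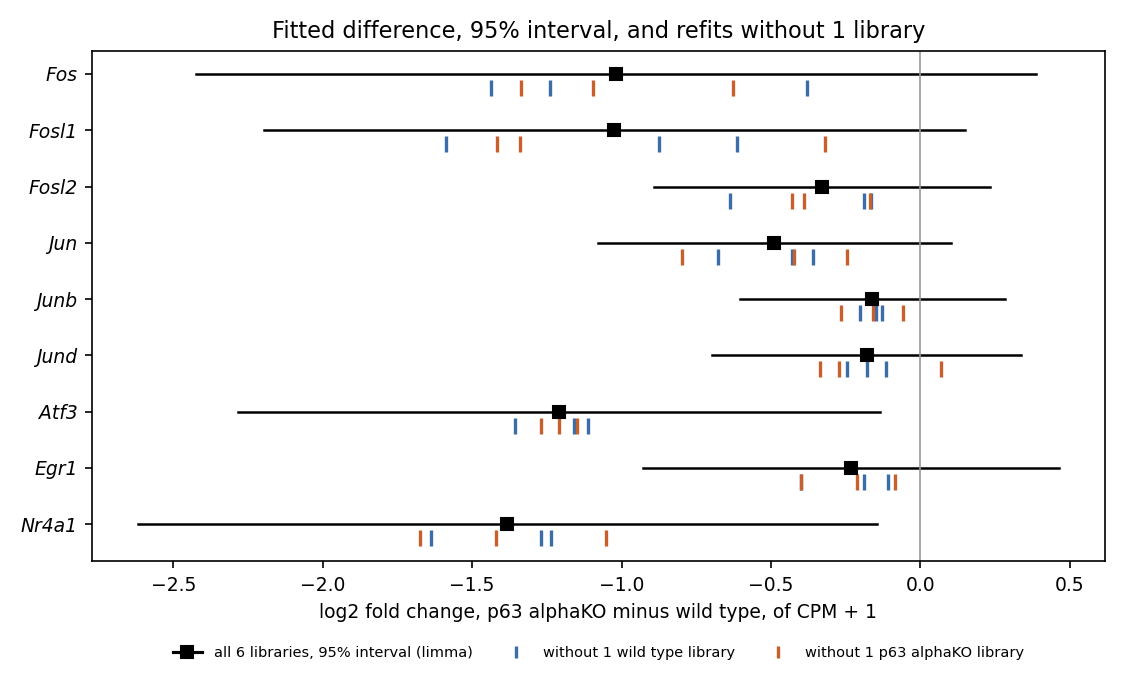
Log2 fold change of CPM + 1, p63 alphaKO minus wild type (horizontal axis), of the 9 tested genes, with squares for the fit on all 6 libraries, lines for its 95% interval, and ticks for fits without 1 wild type (blue) or 1 p63 alphaKO (orange) library. The intervals of Atf3 and Nr4a1 lie below 0, at an unadjusted level, and 1 tick of Jund, at 0.07, lies above it.

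Set against all genes, the counts of members read as follows. The limma fit called 0 of the 9 tested members at an adjusted p under 0.05, where it called 0.0427% of all 11716 tested genes. Lower members at an unadjusted p under 0.05 numbered 2, Atf3 and Nr4a1, against 3.35% of all genes lower in p63 alphaKO at that level. The same 2 members were those whose groups did not overlap, a pattern shown by 5.09% of all genes in that direction. All 9 tested members had a negative log2 fold change, with a median of -0.49, where 49.3% of all genes did and their median was 0.01. The members' median moved to -0.25 on leaving out p63 alphaKO replicate 11, and to -0.80 on leaving out replicate 10 in its place. These members share libraries, so their signs are not independent of each other. Fos and Nr4a1 averaged under 1 CPM in p63 alphaKO and were tested only because of their wild type libraries. Their lower signs, and the place of Nr4a1 in both counts of 2, are therefore partly set by the filter. At a minimum mean of 5 CPM, 6 members were tested, 6 were lower and their median was -0.28. edgeR's quasi-likelihood test and DESeq2, run on reads recovered from the CPM, also called 0 of the 9, with 1 at an unadjusted p under 0.05 in each, Atf3.

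The libraries differed for several members at once. p63 alphaKO replicate 11 was the lowest library for 6 of the 9 tested members and among the lowest 2 for 8, and no member had it among the highest 2. Wild type replicates 13 and 14 were among the highest 2 for 6 and 5 members and among the lowest 2 for none. Wild type replicate 15 was among the lowest 2 for 4, Fosl1, Fosl2, Jund and Egr1, and yet was the highest for Atf3 and second for Nr4a1. p63 alphaKO replicate 11 and wild type replicate 15 are also the libraries that stood apart on the first principal component of all tested genes, at 61.2 and 13.6 against -26.9 to -8.74 for the other 4, and replicate 11 had the fewest reads.

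**Figure D3:**
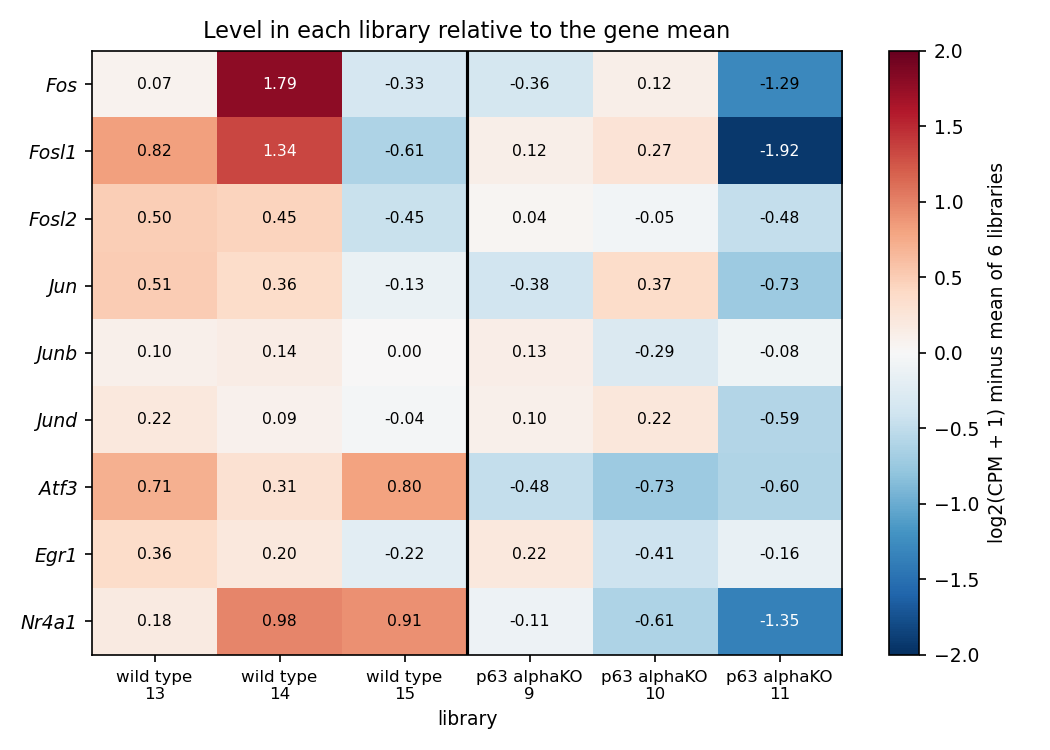
Colours and printed values give log2(CPM + 1) of each tested gene in each library minus that gene's mean over the 6 libraries (colour scale, red above and blue below), with a line between the 3 wild type and the 3 p63 alphaKO libraries. Wild type replicate 14 is highest for Fos at 1.79 and Fosl1 at 1.34, and p63 alphaKO replicate 11 is lowest for Fosl1 at -1.92.

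Markers of other cells varied over the same libraries. Keratinocyte markers were abundant in sum throughout, with all 10 of 10 read. They summed to 41354 CPM in p63 alphaKO replicate 11 and to 45191 to 57365 CPM in the others. Of these markers, 8 of 10 had a negative log2 fold change. The 8 melanocyte markers summed to 816.6, 752.6 and 303.4 CPM across wild type libraries against 551.2, 1018 and 232.2 CPM across p63 alphaKO, lowest in replicates 15 and 11, and 5 of 8 had a negative log2 fold change. The 7 fibroblast markers summed to 37.7, 30.2 and 16.5 CPM against 16.9, 39.0 and 7.06 CPM, with Lum at 0 throughout and all 5 tested members negative. Jun, Fos, Fosl1 and Jund, too, were lowest within their groups in replicates 15 and 11 and highest among p63 alphaKO libraries in replicate 10. The other tested members did not show this order. The 8 muscle markers summed to 44.6, 60.9 and 636.9 CPM against 2.28, 9.34 and 48.2 CPM, with all 6 tested members negative. In wild type replicates 13, 14 and 15, Atf3 held 14, 10 and 15 reads and Nr4a1 held 6, 13 and 12. The part of these cells in the members' levels was not tested. Immune and Langerhans cell markers reached at most 1.37 CPM in any library, with Cd207, Tyrobp, Cd3e and H2-Aa at 0 throughout, and endothelial markers at most 3.53 CPM, with Kdr and Emcn at 0.

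The 5 genes with the most similar profile to Fos over the 6 libraries, out of 9436 candidates with a mean of at least 5 CPM, were Ppp1r3b, Creb5, Larp1, Fras1 and Nod2, at a root mean square difference of 0.30 to 0.43 log2. Creb5, itself a bZIP gene, was at 14.8, 41.3 and 14.3 CPM across wild type libraries against 13.7, 9.33 and 5.29 CPM across p63 alphaKO, and was also highest in wild type replicate 14. Those closest to Jun, at 0.09 to 0.10 log2, included Ncoa5, Zyx, Csrnp1 and Hipk3. Zyx, encoding the focal adhesion protein zyxin, was at 46.2, 42.3 and 34.3 CPM and at 24.7, 43.6 and 18.2 CPM. Csrnp1, another early response gene, was at 14.1, 14.9 and 9.21 CPM and at 8.68, 13.7 and 6.47 CPM. These are the closest of many candidates over 6 points that share library effects, so they are given as a description.

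Other genes of the AP-1 pathway, in 4 lists, had no member past the threshold either. Of 28 other immediate early genes 27 were tested, 17 lower and 10 higher, with a median log2 fold change of -0.29 and 2 at an unadjusted p under 0.05, both lower. Of all genes tested, 49.3% were lower, and 3.35% were lower at that unadjusted p. Groups did not overlap for 5.09% of all genes with p63 alphaKO lower and for 6.45% with it higher. Myc, the growth-promoting transcription factor, was at 31.4, 40.7 and 14.6 CPM across wild type libraries against 12.8, 6.66 and 12.9 CPM across p63 alphaKO, so its groups did not overlap (log2 fold change -1.28, SE 0.40, limma adjusted p = 0.646). Ctgf, a matricellular gene controlled by serum response factor and YAP, was at 2.83, 9.64 and 1.91 CPM across wild type libraries against 0, 3.00 and 0 CPM across p63 alphaKO, and overlapped (log2 fold change -1.63, SE 0.68, limma adjusted p = 0.758). Ier3, an early gene of survival signalling, was on the other side, at 562.7, 633.5 and 584.8 CPM against 718.3, 708.5 and 658.9 CPM (log2 fold change 0.23, limma adjusted p = 0.917), and was chosen for mention after its values were seen because its groups did not overlap. Immediate early genes outside the 10 thus lay on both sides of 0.

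The dimer partners, with Maf and CREB-type genes, had 11 of 14 tested, 6 lower and 5 higher, with a median of -0.10. Atf7, which can pair with Jun proteins, was at 27.0, 29.2 and 13.0 CPM across wild type libraries against 52.5, 42.3 and 24.7 CPM across p63 alphaKO and overlapped (log2 fold change 0.78, SE 0.35, limma adjusted p = 0.774). Maff, a small Maf gene, was at 11.6, 9.01 and 6.99 CPM against 2.74, 10.7 and 4.11 CPM (log2 fold change -0.73, SE 0.46, limma adjusted p = 0.865). Batf and Batf2, which pair with Jun proteins in immune cells, were listed at 0 in every library and are named for that.

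Upstream kinases and activators had all 25 tested, 13 lower and 12 higher, with a median of -0.03. Rps6ka5, encoding the kinase MSK1 that acts on chromatin at early genes, was at 3.46, 3.11 and 1.91 CPM across wild type libraries against 5.94, 6.33 and 7.05 CPM across p63 alphaKO, without overlap and higher in p63 alphaKO (log2 fold change 0.98, SE 0.45, limma adjusted p = 0.769). That pattern was shown by 6.45% of all genes tested. The kinases themselves showed no common direction, and 3 of them, named after their values were seen, serve as examples: Mapk3 was at 0.06, Mapk8 at 0.48 and Mapk14 at -0.07 log2, none past the threshold.

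Reported AP-1 target genes of epithelium had 18 of 20 tested, 7 lower and 11 higher, with a median of 0.08. Mmp9, a gelatinase whose promoter holds AP-1 elements, was at 0, 0 and 0.32 CPM in wild type, from 1 read in all, and at 4.57, 5.67 and 5.29 CPM in p63 alphaKO, from 36 reads (limma adjusted p = 0.293). Mmp3, the stromelysin, was at 3.14, 3.42 and 1.91 CPM across wild type libraries against 10.1, 3.67 and 8.23 CPM across p63 alphaKO (log2 fold change 1.05, SE 0.48, limma adjusted p = 0.767). For both genes the groups did not overlap with p63 alphaKO higher, a pattern shown by 6.45% of all genes, and neither passed. Mmp9 averaged 0.107 CPM in wild type and so was tested only because of its p63 alphaKO libraries.

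**Figure D4:**
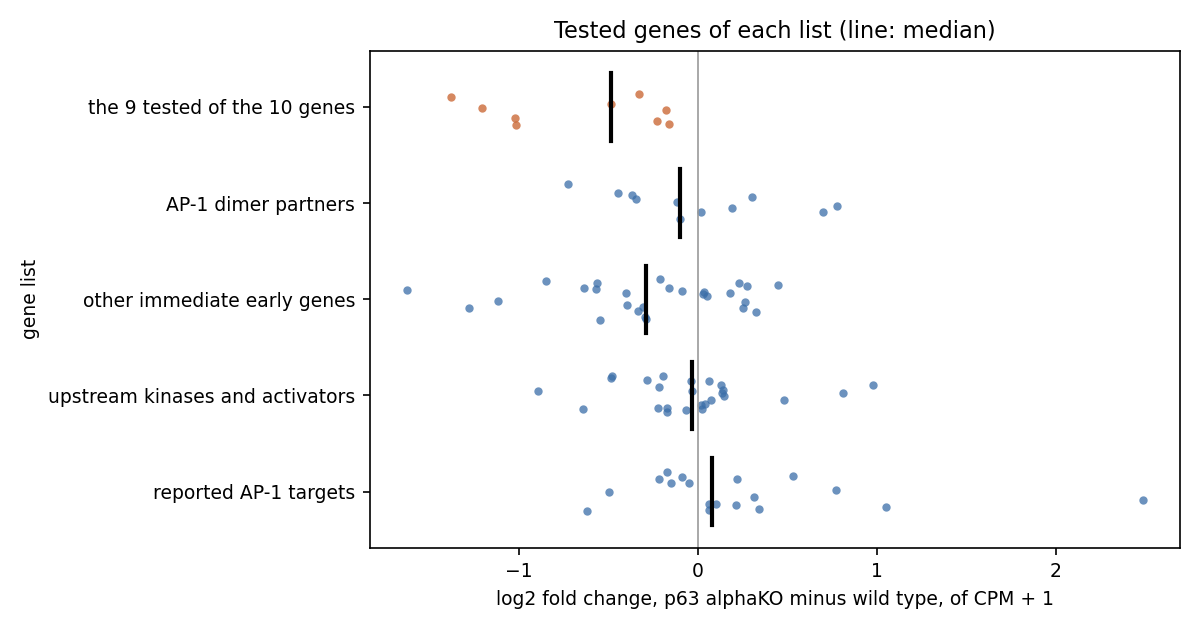
Log2 fold change of CPM + 1, p63 alphaKO minus wild type (horizontal axis), of each tested gene in 5 lists (rows), with the 9 tested of the 10 genes described here in orange, other lists in blue and a line at each median. The orange points all lie below 0 with a median of -0.49, while the other lists have points on both sides and medians from -0.29 to 0.08. Among the orange points, Fos and Nr4a1 were tested only because of their wild type libraries.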

How the data were processed

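Values were read from 1 table of 6 columns, 1 library each. The deposited values are CPM with 2 decimals, as read from the values: each column sums to between 999047 and 999508, and dividing by the value of 1 read gave whole numbers (tolerance 0.1 read) for 100% of the values that are not 0. The submitters' processing notes name STAR, HTSeq and mm10. Not given in the sources used here are their versions and options, the annotation, and whether molecules were tagged. Reads not tagged by molecule are not independent, so intervals on reads cover counting error only.

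The 11716 genes whose mean reached 1 CPM entered a limma 3.58.1 fit (R 4.3.3) of log2(CPM + 1) with the trend option of eBayes, two-sided, with Benjamini-Hochberg adjustment over all of them and a threshold of 0.05. A fold change on that scale understates the change of low genes. edgeR 4.0.16 and DESeq2 1.42.0 were alternatives on the recovered reads. The fit was tested on simulated data.

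The 10 genes and all lists were chosen with earlier results of these data known. Named are the 10 genes, from each list up to 4 genes past the threshold or otherwise the 2 of smallest p, and the 5 nearest profiles to Fos and to Jun. Some genes that this rule names are not reported here. Coordinates are from GENCODE vM21 on GRCm38, and promoter windows from RefSeq on GRCm38.p6.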

Additional observations from a re-analysis of the deposited data

How the results depend on the processing

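The members were refitted under 16 alternatives. The count of members past the threshold was 0 in each, and the count of lower members ranged from 6 of 6 to 10 of 10 tested, with 1 member not lower in the fits named below. Their median log2 fold change, -0.49 on all libraries, ran from -0.80 (without p63 alphaKO replicate 10) to -0.25 (without p63 alphaKO replicate 11) and was -0.28 at a minimum mean of 5 CPM, where 6 members were tested. Jund alone changed direction: its log2 fold change ran from -0.335 to 0.069 over the fits without 1 library, and it was 0.003 without both wild type replicate 15 and p63 alphaKO replicate 11. The lower members numbered 8 of 9 without p63 alphaKO replicate 11 and without both. The cause was not tested. Over all genes, the count past the threshold was 5, and it was 2 with a pseudocount of 0.5, 3 with a pseudocount of 5, 2 with a minimum mean of 5 CPM, 2 by edgeR, 18 by DESeq2 and 48 without both of those libraries. It was 0 by limma with no filter (784 genes at an unadjusted p under 0.05) and 0 by limma with no trend (827), and it ran from 2 (without wild type replicate 13 or 14) to 13 (without p63 alphaKO replicate 11) when 1 library was left out. The log2 fold changes of Atf3, Fos and Nr4a1, read from few reads, moved with the pseudocount and the tool, from -0.53 to -2.225 for Nr4a1. Fos, Atf3 and Nr4a1 could not be tested at a minimum mean of 5 CPM. No paired analysis was possible because the groups share no replicate numbers.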
